A study of Sus scrofa with 34 samples.

Results

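The genes described here take fatty acids into cells, activate them to acyl-CoA and carry them in the cytosol, and were measured by RNA-Seq in the liver and ileum of weaned piglets. They were chosen by name, with earlier results of these data known. The 10 names were CD36, SLC27A2, SLC27A4 and SLC27A5 for uptake, ACSL1, ACSL3 and ACSL5 for activation, and FABP1, FABP2 and FABP3 for binding. Of the 10, 8 were matched to a row among the 25880 genes of the count tables, of which 14857 carried a symbol. CD36 and FABP1 were not matched to an identifier and were not analysed here. The 4 liver diets were control, PFA (a phytogenic feed additive based on essential oils), OO (oxidized oil) and OO + PFA, and the 2 ileum diets were control and PFA without oxidized oil. There were 6 liver libraries per diet and 5 ileum libraries per diet, each from a separate pig sampled on day 28 of the trial. All pigs were weaned crossbred piglets. In the study's diet tables the oxidized oil was added at the expense of the other ingredients, so the diets with it also held more fat and energy, and the oxidation of the oil cannot be told apart from these. All 10 ileum pigs also gave a liver library. Since every diet had 1 pen, an effect of the pen cannot be told apart from that of the diet. Pigs are named by a number after C (control), P (PFA), OO, or OP (OO + PFA).

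Long-chain fatty acids enter hepatocytes and enterocytes with the help of membrane proteins such as CD36 and the fatty acid transport proteins, the SLC27 family, several of which are themselves acyl-CoA synthetases. Inside the cell, the long-chain acyl-CoA synthetases, the ACSL family, join the fatty acid to coenzyme A, which commits it to oxidation or to esterification into triglycerides and phospholipids. Fatty acid binding proteins, the FABP family, hold the poorly soluble fatty acids in the cytosol. In liver, several genes of these families are known targets of PPARα, a nuclear receptor that binds fatty acids and oxidized fatty acids.

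The libraries held 18738055 to 42446834 read pairs counted on genes. The 8 hepatocyte markers sum to at least 99650 CPM, read pairs on a gene per 1000000 on all genes, in every liver tested and to at most 2.31 CPM in the ileum, where the 8 enterocyte markers sum to 16040 CPM or more. The OO + PFA pig 77, which the study left out for suspected RNA degradation, was left out of the liver tests, which held 23 libraries. The study's text does not name that pig, and it was identified by its mapping rate, the lowest of the 24 in the study's mapping statistics. Liver library titles began with either PigLiv or PL, and what this marks is not given in the sources used here, so the results are also given within each form. Pigs C-80, C-85 and OP-137, all titled PL, had the largest numbers of read pairs on no gene among the 23 livers, with 23.5, 18.5 and 16.0 for every 100 on genes. In bulk tissue, fewer cells of a type and less RNA per cell cannot be told apart.

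Across the 4 liver diets, 7 of the 8 genes had enough counts to be tested, and 3 of the 7 differed: SLC27A2, ACSL1 and FABP3. The test was edgeR's quasi-likelihood test, with p-values adjusted over all genes by Benjamini-Hochberg, and a gene is named as called where its adjusted p was 0.05 or less. Of all 13831 genes tested across the 4 diets, 3.66% were called. In OO against control the same 3 genes were called, all higher with OO, where 2.71% of all genes were called. In OO + PFA against PFA, SLC27A2 and ACSL1 were called, both higher with oil, where 1.58% of all genes were called. With both pairs of diets pooled, OO and OO + PFA against control and PFA, SLC27A2, ACSL1 and FABP3 were called higher, where 11.8% of all genes were called. The median log2 fold change of the 7 genes was 0.38 in OO against control, 0.51 in OO + PFA against PFA and 0.31 pooled, beside 0.06, 0.003 and 0.01 over all genes tested. These 3 comparisons share pigs and are not independent of each other.

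The sequences just upstream of the 3 called genes are shown because these genes moved together between the diets. They are the 250 bases before the RefSeq gene start on Sscrofa11.1, written 5′ to 3′ on the gene's strand, with GC boxes (GGGCGG or its reverse complement) and CCAAT boxes (CCAAT or its reverse complement) in capitals. SLC27A2 lies on the minus strand with this stretch at chr1:121578995-121579244, ACSL1 on the minus strand at chr15:45936328-45936577, and FABP3 on the minus strand at chr6:87950709-87950958. RefSeq gives ACSL1 several starts, and the stretch before the most upstream one is shown.
SLC27A2: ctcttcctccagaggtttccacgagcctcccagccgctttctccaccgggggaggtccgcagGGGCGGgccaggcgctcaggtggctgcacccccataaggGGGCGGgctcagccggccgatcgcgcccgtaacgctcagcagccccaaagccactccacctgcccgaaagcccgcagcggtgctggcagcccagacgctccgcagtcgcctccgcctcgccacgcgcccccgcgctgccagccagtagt
ACSL1: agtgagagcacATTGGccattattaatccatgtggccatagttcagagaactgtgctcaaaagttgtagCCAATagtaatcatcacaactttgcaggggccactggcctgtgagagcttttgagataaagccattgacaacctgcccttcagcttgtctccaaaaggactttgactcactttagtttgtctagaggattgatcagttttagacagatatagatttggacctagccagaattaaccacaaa
FABP3: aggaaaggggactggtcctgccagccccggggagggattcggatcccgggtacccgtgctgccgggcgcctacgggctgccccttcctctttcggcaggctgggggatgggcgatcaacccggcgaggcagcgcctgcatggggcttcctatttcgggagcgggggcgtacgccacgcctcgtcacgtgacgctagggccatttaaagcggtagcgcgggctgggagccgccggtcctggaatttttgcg
The stretch of SLC27A2 is 72.4% G and C and holds 2 GC boxes, at 188 and 149 bases before the start. The stretch of ACSL1 is 42.0% G and C and holds 2 CCAAT boxes, at 239 and 181 bases, and that of FABP3 is 68.4% G and C and holds neither box. A GC box is in 53.2% and a CCAAT box in 31.7% of the 14279 stretches of this length, and their median content of G and C is 60.0%. The direct repeat AGGTCANAGGTCA, the form of site known for PPARα with its partner RXR, was searched on both strands. With up to 2 mismatches it is in 2.56% of all stretches and in none of the 8 genes described here, whose best matches have 3 to 5 mismatches. This says only that these letters are not in these 250 bases.

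SLC27A2 (ENSSSCG00000004643), which encodes a transporter of the endoplasmic reticulum and peroxisome that also activates very long-chain fatty acids, differed most between the liver diets. It lies on chromosome 1 from 121530449 to 121578994 of Sscrofa11.1, with 10 exons. In CPM scaled by TMM, edgeR's library scaling, the control livers ran from 57.0 to 108, with a median of 87.8, and the PFA livers from 53.9 to 118, with a median of 100.2. The OO livers ran from 226 to 382, with a median of 291. The 5 OO + PFA livers stood at 174, 238, 271, 211 and 162 CPM. All 11 livers of pigs fed oxidized oil were therefore above all 12 livers of pigs not fed it. OO was 3.57-fold above control (log2 1.83, standard error 0.19, adjusted p = 2.14e-06 by edgeR), and OO + PFA was 2.23-fold above PFA (log2 1.16, standard error 0.19, adjusted p = 0.00157). Pooled over both, the fold change was 2.82 (log2 1.49, standard error 0.13). In the PigLiv libraries alone the log2 difference between OO and control was 1.62 (adjusted p = 8.47e-04 by edgeR), and in the PL libraries alone it was 2.14 (adjusted p = 0.0724), with 3 OO and 2 control libraries. The pooled difference was 1.38 within PigLiv (adjusted p = 1.08e-04 by edgeR) and 1.505 within PL, where OO + PFA held only 1 library, OP-137. The left-out OO + PFA pig stood at 34.5 CPM, below every other liver, and with it the log2 difference between OO + PFA and PFA was 0.94 (adjusted p = 0.0479 by edgeR).

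SLC27A4 (ENSSSCG00000005648), the main transport protein of this family known in enterocytes, was not called in any liver comparison of diets. It lies on chromosome 1 from 268773792 to 268788208, with 11 exons. Its liver level ran from 7.31 to 13.1 CPM in control, 8.32 to 13.1 in PFA, 6.16 to 19.1 in OO and 6.91 to 24.7 in OO + PFA, and all groups overlapped. The log2 difference between OO and control was 0.38 (95% interval -0.19 to 0.94, adjusted p = 0.442 by edgeR). The highest 4 livers, OP-79 with 24.7 CPM and OO-99, OO-102 and OO-130 with 19.1, 17.9 and 17.0, were also the 4 libraries in which counts rose most with the G and C content of genes, with slopes of 0.487, 0.297, 0.418 and 0.37 in log2 per 10% of G and C. The exons of SLC27A4 are 62.3% G and C. After a correction for G and C content the log2 difference between OO and control was 0.06 (adjusted p = 0.864 by edgeR). In OO + PFA against PFA it turned from 0.25 to -0.32, and pooled from 0.31 to -0.13, with no call before or after the correction.

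SLC27A5 (ENSSSCG00000031449), a liver protein known to activate bile acids for conjugation as well as to transport fatty acids, was the lowest of the transporters in liver. It lies on chromosome 6 from 63068880 to 63075246, with 11 exons. The control livers stood at 1.87 to 7.90 CPM, the PFA livers at 1.45 to 2.96, the OO livers at 1.29 to 2.61 and the OO + PFA livers at 1.17 to 4.87. All groups overlapped, and the highest 3 livers, C-80 and C-85 with 6.16 and 7.90 CPM and OP-137 with 4.87, are the libraries with the most read pairs on no gene. The log2 difference between OO and control was -1.07 (95% interval -1.79 to -0.36, adjusted p = 0.0821 by edgeR), and DESeq2 called it (adjusted p = 0.0299), as did edgeR after the correction for G and C content (log2 -1.29, adjusted p = 0.0347). In the PigLiv libraries alone, which hold neither of the 2 high controls, the difference was -0.19 (adjusted p = 0.793 by edgeR), and in the PL libraries alone it was -2.12 (adjusted p = 0.0724). Across the 4 diets SLC27A5 was not called by edgeR (adjusted p = 0.113), but it was by DESeq2 (0.0396) and after the correction (0.0375). In OO + PFA against PFA the difference was 0.51 (adjusted p = 0.386 by edgeR) and turned to -0.38 after the correction (adjusted p = 0.659). Pooled it was -0.28 (adjusted p = 0.507 by edgeR), and -0.84 and called after the correction (adjusted p = 0.0485). The part of these library differences in the result was not tested.

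Summed per kb of exon over the 3 transporters, SLC27A2 made up 91.1% ± 4.0 (SD, n = 6) in control livers and 93.5% ± 2.7 (n = 6) with PFA. It made up 97.6% ± 1.2 (n = 6) with OO and 96.2% ± 2.2 (n = 5) with OO + PFA. The sum itself was 40.7 ± 7.4, 45.1 ± 9.98, 136 ± 23.99 and 97.7 ± 19.3 CPM per kb in the same order (SD).

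ACSL1 (ENSSSCG00000015784), the chief long-chain acyl-CoA synthetase known in liver, followed the same diets. It lies on chromosome 15 from 45866858 to 45936327, with 26 exons over all its transcripts. The control livers ran from 898 to 1344 CPM, with a median of 1278, and the PFA livers from 790 to 1686, with a median of 1206. The OO livers ran from 2200 to 3165 CPM, with a median of 2866, and the 5 OO + PFA livers stood at 2408, 2043, 2309, 1744 and 1666. All OO livers were above all control livers, and OO + PFA overlapped PFA in a single pair: P-95 at 1686 CPM and OP-137 at 1666. OO was 2.33-fold above control (log2 1.22, standard error 0.16, adjusted p = 9.36e-05 by edgeR). OO + PFA was 1.69-fold above PFA (log2 0.76, standard error 0.17, adjusted p = 0.0226 by edgeR), and this call was lost without P-107 (adjusted p = 0.0564), OP-79 (0.0673) or OP-105 (0.0510), at log2 differences of 0.73, 0.69 and 0.71. With the left-out OO + PFA pig, which stood at 758 CPM, it was also lost (log2 0.60, adjusted p = 0.0690 by edgeR). In the PigLiv libraries alone both calls held, with log2 differences of 1.01 for OO against control (adjusted p = 0.00875 by edgeR) and 0.91 for OO + PFA against PFA (adjusted p = 0.0444). In the PL libraries alone OO against control was 1.45 (adjusted p = 0.134 by edgeR). The pooled difference was 0.92 within PL, where OO + PFA held only OP-137, and 0.96 within PigLiv (adjusted p = 6.52e-04 by edgeR).

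ACSL3 (ENSSSCG00000016223), an enzyme known at lipid droplets and the endoplasmic reticulum, and ACSL5 (ENSSSCG00000031789), a mitochondrial and endoplasmic form prominent in intestine, were not called in any liver comparison of diets. ACSL3 lies on chromosome 15 from 124741986 to 124816955 and ACSL5 on chromosome 14 from 122777135 to 122828054. ACSL3 ran from 39.2 to 114 CPM over the 23 livers, and its group means were 76.9 ± 20.6 in control, 86.6 ± 16.1 in PFA, 76.8 ± 23.5 in OO and 74.1 ± 22.7 in OO + PFA (SD). Its log2 difference between OO and control was -0.001 with a 95% interval of -0.44 to 0.44. ACSL5 ran from 203 to 404 CPM, with group means of 272 ± 44.4, 262 ± 37.6, 300.0 ± 56.0 and 258 ± 45.8 (SD). Its log2 difference between OO and control was 0.14 with a 95% interval of -0.15 to 0.43, which is the narrowest interval of the 7 genes in that comparison. The 5′ end of ACSL5 overlaps a gene on the other strand, and whether the counting used strand is not stated.

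The shares of ACSL1, ACSL3 and ACSL5 in their sum per kb of exon, which leaves out the other ACSL genes, differed with the oil. ACSL1 made up 69.5% ± 3.2 (SD, n = 6) of the sum in control livers and 69.2% ± 3.2 (n = 6) with PFA. It made up 82.9% ± 3.2 (n = 6) with OO and 80.1% ± 2.9 (n = 5) with OO + PFA. The control and PFA livers ran from 65.0% to 73.8% and the livers with oxidized oil from 76.9% to 86.4%, with no overlap. The sum of the 3 genes was 352 ± 46.6, 349.5 ± 79.05, 687 ± 80.7 and 514 ± 76.7 CPM per kb in control, PFA, OO and OO + PFA (SD).

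FABP3 (ENSSSCG00000036883), the heart-type binding protein best known from cardiac and skeletal muscle, had a liver level far above that of FABP2, the other binding protein matched by name. FABP2 was near 0 there, while 9 other binding genes, from a list described below, summed to 316.5 to 617 CPM in the livers tested. FABP3 lies on chromosome 6 from 87943003 to 87950708, with 4 exons. The control livers stood at 18.7, 7.93, 8.26, 9.18, 7.73 and 17.3 CPM, the OO livers at 26.3, 26.9, 21.0, 26.8, 20.7 and 25.8, and the OO + PFA livers at 32.7, 27.1, 21.2, 10.8 and 7.51. The OO livers were all above the control livers and varied little among themselves, while 3 of the OO + PFA livers stood at 21.2 CPM or more and 2 stood no higher than the PFA livers, which ran from 7.53 to 12.8. OO against control was called at an adjusted p of 0.0438 by edgeR (2.14-fold), and 14 of the 23 fits that left out 1 pig kept the call. It was lost without C-80, C-85, C-92, C-100, OO-88, OO-99, OO-102, OO-130 or OP-105, with adjusted p from 0.0533 to 0.0977 and log2 differences of 1.00 to 1.14 by edgeR, and with no filter on low counts (adjusted p = 0.0504). OO + PFA against PFA had a log2 difference of 0.96 (standard error 0.30, adjusted p = 0.0966 by edgeR) and was called by DESeq2 (adjusted p = 0.0473), by edgeR with all 24 livers (log2 1.03, adjusted p = 0.0405) and by edgeR without OP-137 (log2 1.17, adjusted p = 0.0434). The pooled oil difference was 1.03 (standard error 0.21, adjusted p = 0.00378 by edgeR) and kept its call in all 23 fits without 1 pig. Within the PigLiv libraries the OO difference was 0.91 (adjusted p = 0.182 by edgeR) and within the PL libraries 1.56 (adjusted p = 0.0724). The pooled difference was 1.05 within PigLiv (adjusted p = 0.0250 by edgeR) and 0.55 within PL, where OO + PFA held only OP-137 at 7.51 CPM.

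Striated muscle markers were at or near 0 beside FABP3. All 5 that were matched (CKM, ACTA1, TNNC1, TNNT3 and MYL2) were too low to be tested in liver, and their sum was at most 0.585 CPM in every liver tested. The sum of the 7 matched adipocyte markers ran from 16.0 to 21.3 CPM in control, 16.1 to 19.4 in PFA, 22.6 to 40.7 in OO and 20.9 to 34.3 in OO + PFA, so it moved with the oil. PLIN1, CIDEC and FABP4 of that list were called higher in the pooled comparison, where 11.8% of all genes were called. ADIPOQ and LEP of the same list had at most 3 counts in every liver tested. Among the 8 hepatocyte markers, SERPINA1, TF and APOH were called lower in the pooled comparison. Of the markers of other cells, APOA4 of 5 tested enterocyte markers and MARCO of 8 macrophage markers were called higher, and 0 of 6 endothelial, 0 of 8 smooth muscle and 0 of 8 leukocyte markers were called by edgeR, with 0, 1 and 0 at an unadjusted p under 0.05. The part of these markers in the results was not tested.

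**Figure D1:**
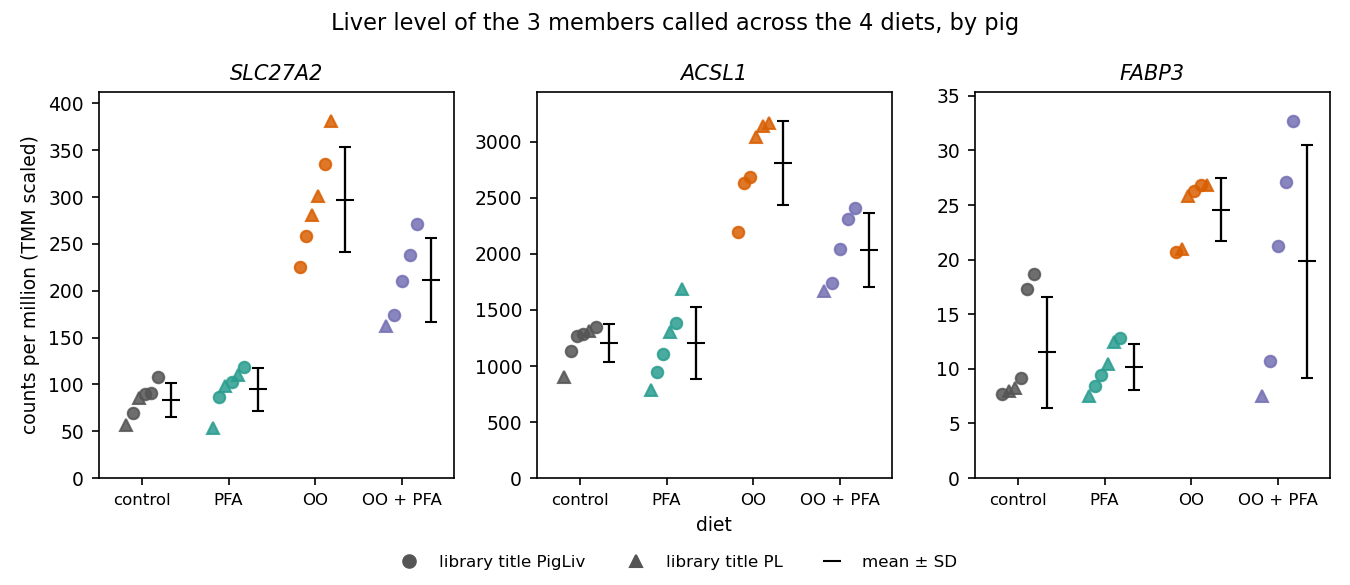
Level of SLC27A2, ACSL1 and FABP3 in each liver by diet, as TMM-scaled CPM; each point is a pig, circles are libraries titled PigLiv and triangles those titled PL, and bars are the mean ± SD. The 11 livers with oxidized oil lie above the other 12 for SLC27A2, while for FABP3 a pair of OO + PFA livers, at 10.8 and 7.51, lie no higher than the control and PFA livers.

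**Figure D2:**
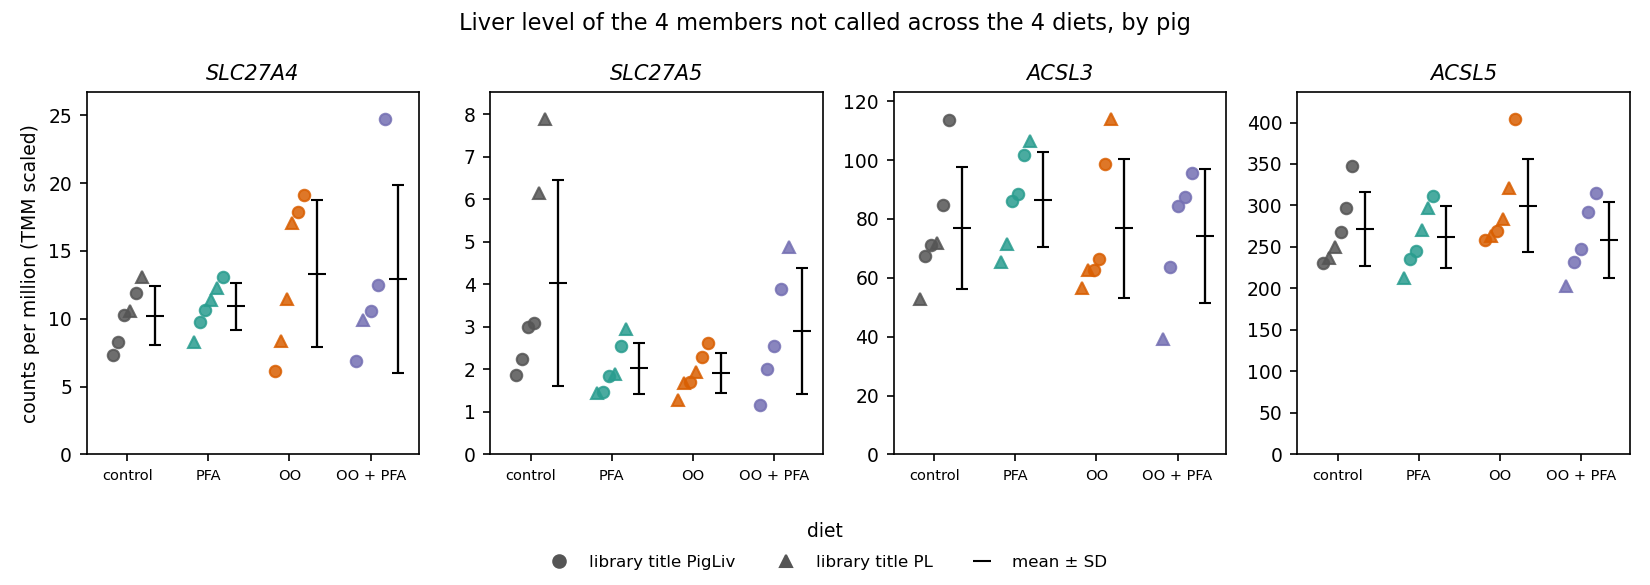
Level of SLC27A4, SLC27A5, ACSL3 and ACSL5 in each liver by diet, in the same units and symbols. All diets overlap for each gene, and the highest SLC27A5 values, 7.90 and 6.16, are the 2 PL control livers.

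FABP2 (ENSSSCG00000037272), the intestinal form, was near 0 in liver. It lies on chromosome 8 from 104464342 to 104468059, with 4 exons. It had 0 counts in 19 of the 24 livers and at most 2 in any, so it was not tested between the liver diets.

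PFA without oil made no called difference in liver. In PFA against control, 0% of all 13831 genes were called by edgeR, with 1522 at an unadjusted p under 0.05 and 37 called by DESeq2, and 0 of the 7 genes were called by either, though DESeq2 gave no adjusted p for SLC27A5. The log2 difference was 0.19 for SLC27A2 (95% interval -0.19 to 0.56), -0.01 for ACSL1 (-0.34 to 0.33) and -0.17 for FABP3 (-0.77 to 0.42). SLC27A5 had the smallest p, with a log2 difference of -0.99 (-1.71 to -0.28, adjusted p = 0.334 by edgeR), and it was -0.38 in the PigLiv libraries alone (adjusted p = 1 by edgeR) and -1.75 in the PL libraries alone (adjusted p = 0.117). These intervals do not show that the diets act alike.

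In pigs fed oxidized oil, SLC27A2 and ACSL1 stood lower with PFA than without it, by less than the test could call. In OO + PFA against OO, 0% of all genes were called by edgeR, with 1176 at an unadjusted p under 0.05 and 31 called by DESeq2, and 0 of the 7 genes were called by either. The mean of SLC27A2 was 211 ± 45.0 CPM (SD, n = 5) with OO + PFA and 297 ± 55.7 (n = 6) with OO, a log2 difference of -0.49 (95% interval -0.89 to -0.10, unadjusted p = 0.0165 and adjusted p = 0.494 by edgeR). The mean of ACSL1 was 2034 ± 330.0 CPM and 2812 ± 378, a log2 difference of -0.47 (-0.82 to -0.11, unadjusted p = 0.0120 and adjusted p = 0.469 by edgeR). The ranges of the 2 diets overlapped for both genes. In the PigLiv libraries alone the differences were -0.29 and -0.24. For FABP3 the difference was -0.31 (-0.93 to 0.31).

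The test of whether the oil difference itself differed with and without PFA gave 0% of all genes called by edgeR, with 1881 at an unadjusted p under 0.05 and 161 called by DESeq2, and 0 of the 7 genes by either. For SLC27A2 the oil difference with PFA less that without it was -0.68 on the log2 scale (95% interval -1.22 to -0.14, unadjusted p = 0.0165 and adjusted p = 0.283 by edgeR). For ACSL1 it was -0.46 (-0.95 to 0.03, adjusted p = 0.391), and for FABP3 the interval was widest of the 3, -0.99 to 0.73. SLC27A5 had the smallest p, with 1.58 (0.55 to 2.62, unadjusted p = 0.00413 and adjusted p = 0.205 by edgeR), and after the correction for G and C content 0.92 (adjusted p = 0.3997). With a term for the title form it was 1.62 (adjusted p = 0.194 by edgeR). The livers highest in SLC27A5, C-80, C-85 and OP-137, are all titled PL. In the PigLiv libraries alone its oil difference was 0.325 with PFA and -0.19 without it.

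**Figure D3:**
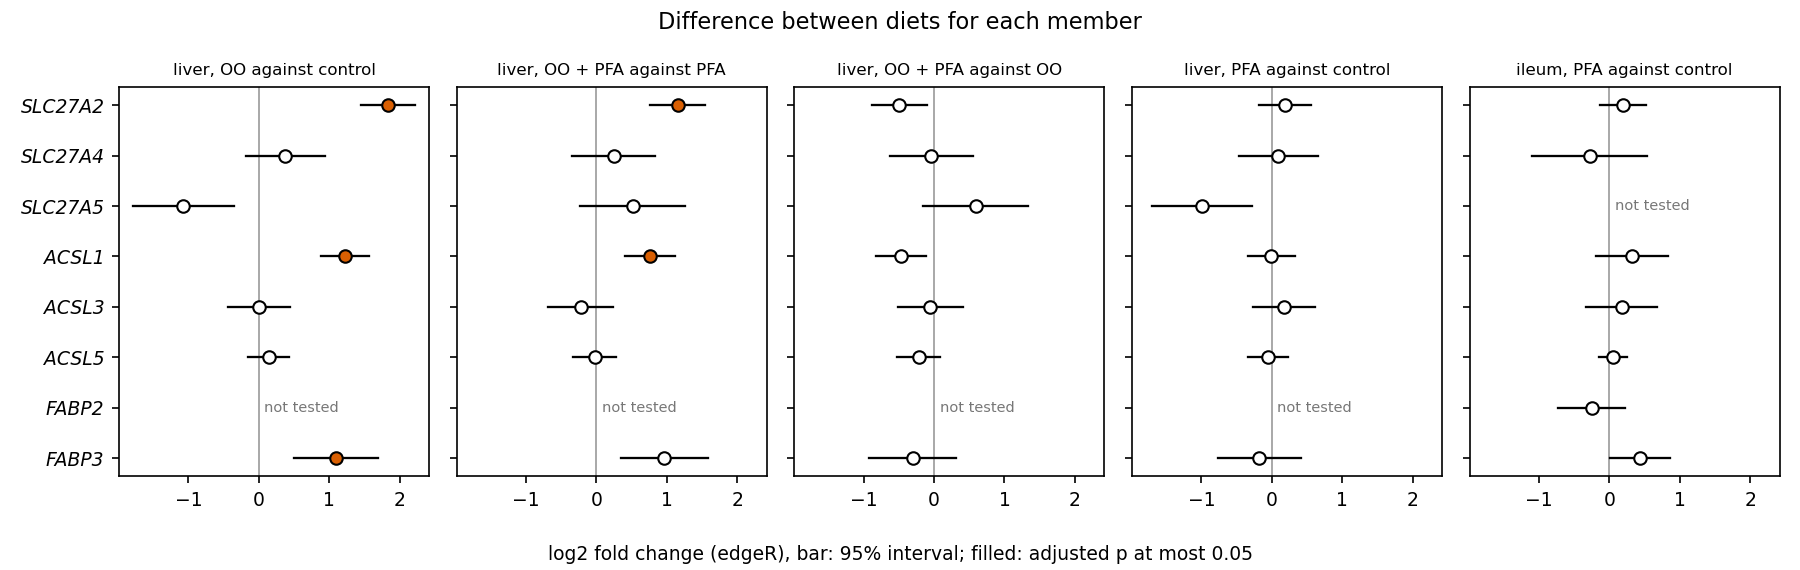
Log2 fold change of each gene between diets, in 4 liver comparisons and in the ileum; points are edgeR estimates, bars their 95% intervals, and filled points are genes called by the test. SLC27A2 and ACSL1 are filled in both comparisons of oil, at 1.83 and 1.22 without PFA and at 1.16 and 0.76 with it, and no point is filled in the comparisons of PFA.

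In the ileum, PFA made no called difference in any of the 7 genes tested. In PFA against control, 0% of all 14300 genes were called by edgeR, with 401 at an unadjusted p under 0.05 and 5 called by DESeq2, and 0 of the 7 genes were called by either. Their median log2 difference was 0.17, beside 0.02 over all genes tested. FABP3 had the smallest p of the 7. Its control ilea stood at 38.4, 24.5, 29.1, 40.9 and 25.3 CPM and its PFA ilea at 30.0, 36.8, 47.7, 47.1 and 52.6. The log2 difference was 0.44 (95% interval 0.01 to 0.86, unadjusted p = 0.0443 and adjusted p = 0.991 by edgeR), and the groups overlapped. The sum of the 8 smooth muscle markers ran from 2025 to 8728 CPM in control ilea and from 3344 to 10030 in PFA ilea. For the 5 matched striated muscle markers it was 12.8 to 64.5 and 22.1 to 79.8 in the same order. For the 8 enterocyte markers it was 18370 to 23840 and 16040 to 21520. Of the markers tested in these lists, 0 were called by edgeR between the ileum diets. Their part in the ileum differences was not tested.

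FABP2, which carries fatty acids absorbed by the enterocyte, was by far the most abundant of the 8 matched genes in the ileum. Its control ilea stood at 3470, 3130, 2985, 2632 and 4072 CPM and its PFA ilea at 3512, 1897, 3906, 2370 and 2024. The lowest 3 were all PFA pigs, but the other 2 PFA pigs lay within the control range, and the log2 difference was -0.25 (95% interval -0.72 to 0.23). SLC27A4 ran from 104 to 342 CPM in control and from 125 to 386 in PFA, where a single pig, P-134, stood at 386 and the other 4 at 169 or less. Its log2 difference was -0.28 (-1.10 to 0.54) and, without P-134, -0.72. ACSL1 in the ileum ran from 23.9 to 38.2 CPM in 9 pigs and stood at 67.3 in P-95, and its log2 difference of 0.32 was 0.02 without that pig. ACSL3 had a log2 difference of 0.17 (-0.33 to 0.68), ACSL5 of 0.05 (-0.15 to 0.25) and SLC27A2 of 0.19 (-0.14 to 0.51). SLC27A5 had at most 2 counts in any ileum and was not tested there.

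**Figure D4:**
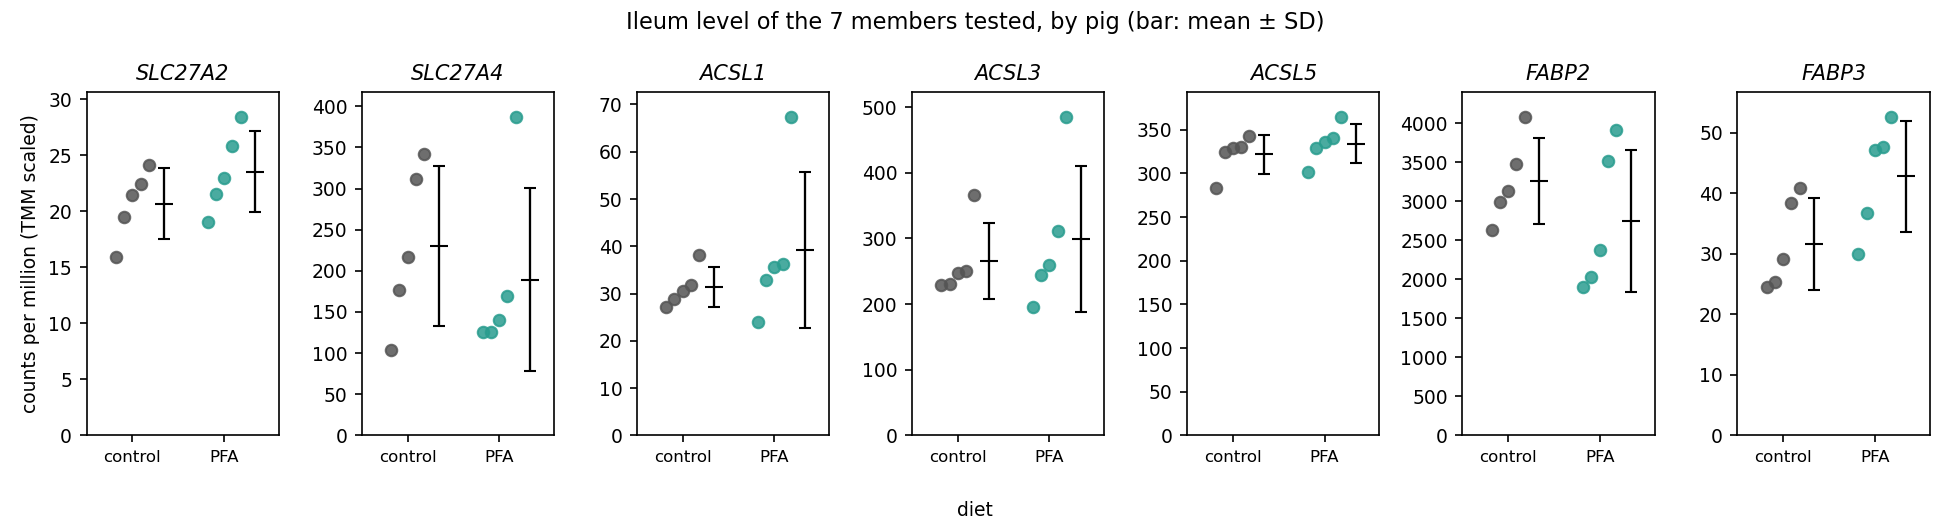
Level of the 7 genes tested in the ileum of control and PFA pigs, as TMM-scaled CPM; each point is a pig and bars are the mean ± SD. The groups overlap for every gene, and single high pigs stand apart for SLC27A4 at 386 and ACSL1 at 67.3.

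The 2 tissues differed in which of these genes they held at a high level. In the 10 pigs with both tissues, all 8 genes differed between ileum and liver by edgeR with TMM scaling, where 78.1% of all 14982 genes tested were called. In that scaling 4 were higher and 4 lower in ileum. The direction of ACSL5 and the call of ACSL3 depended on the processing, as given below. TMM factors ran from 0.537 to 0.755 in liver and from 1.39 to 1.58 in ileum, so every value that follows leans on the scaling of 1 tissue against the other, and the value on total counts is given beside it. SLC27A2 was lower in the ileum in all 10 pigs (log2 -3.08, standard error 0.14, adjusted p = 2.88e-14 by edgeR) and SLC27A4 was higher in all 10 (log2 3.22, standard error 0.24, adjusted p = 6.65e-11). On total counts these were -1.96 and 4.34. SLC27A5 had at most 2 counts in any ileum and was at least 39.0-fold higher in liver, taken against a floor of 3 counts in each library, or at least 18.1-fold on total counts. ACSL1 was lower in the ileum by -6.18 on the log2 scale (standard error 0.21, adjusted p = 1.25e-16 by edgeR), with 1146 to 2512 CPM in liver and 16.2 to 45.7 in ileum in the scaling of both tissues, and by -5.04 on total counts. FABP2 was at least 12520-fold higher in ileum, against the same floor, or at least 27250-fold on total counts.

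The other 3 differences were smaller. ACSL5 was lower in the ileum in all 10 pigs by TMM (log2 -0.80, standard error 0.09, adjusted p = 5.24e-08 by edgeR). On total counts in place of TMM it was higher in the ileum in all 10 pigs (log2 0.33, adjusted p = 3.62e-04 by edgeR), with means of 328 CPM in ileum and 261 in liver, so no direction can be given for it. ACSL3 was higher in the ileum in all 10 pigs (log2 0.69, adjusted p = 5.09e-04 by edgeR). On total counts the difference was 1.82, and after correction for G and C content it was 0.20 (adjusted p = 0.219). FABP3 was higher in the ileum in 8 of the 10 pigs (log2 0.66, standard error 0.18, adjusted p = 0.00215 by edgeR), and on total counts in all 10 (log2 1.79). The difference of the PFA effect between the tissues was called for 0% of all genes by edgeR, with 739 at an unadjusted p under 0.05 and 0 called by DESeq2, and for 0 of the 8 genes, with 2 of them at an unadjusted p under 0.05.

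Compared per length, in CPM per kb of RefSeq exon with each tissue scaled on its own, ACSL1 led the 8 matched genes in liver and FABP2 in ileum. The liver medians over 23 pigs were 338 for ACSL1, 92.1 for ACSL5, 52.9 for SLC27A2, 28.7 for FABP3, 13.2 for ACSL3, 1.86 for SLC27A4, 0.922 for SLC27A5 and 0 for FABP2. ACSL5 was above SLC27A2 in 14 of the 23 pigs, and their order differed with the diet. In every control and PFA liver ACSL5 was the higher, at 73.1 to 119 against 24.1 to 52.9. In every OO liver SLC27A2 was the higher of the pair, and the OO + PFA livers went both ways. SLC27A4 was above SLC27A5 in 19 of the 23 pigs. Other neighbours in that order held it in at least 22 pigs. The ileum medians over 10 pigs were 5028 for FABP2, 113 for ACSL5, 84.1 for FABP3, 45.6 for ACSL3, 30.2 for SLC27A4, 9.81 for SLC27A2, 6.56 for ACSL1 and 0.0085 for SLC27A5. There ACSL3 was above SLC27A4 in 8 of 10 pigs, and ACSL5 above FABP3 and SLC27A2 above ACSL1 in 9. The RefSeq model of FABP3 holds 447 exon bases and ends close to its stop codon, so its level per kb reads high.

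By share of the same sums per kb, ACSL1 made up most of the sum of the 3 ACSL genes in liver and 3.87% ± 0.61 (SD, n = 5) in control ileum and 4.58% ± 2.24 (n = 5) in PFA ileum, where ACSL5 made up 66.98% ± 3.7 and 65.2% ± 7.4. SLC27A4 made up 79.4% ± 7.7 of the 3 transporters in control ileum and 73.1% ± 8.5 in PFA ileum. FABP2 made up 98.7% ± 0.5 of the sum of FABP2 and FABP3 in control ileum and 97.7% ± 0.9 in PFA ileum. This sum leaves out FABP1, which was not matched, and the other binding genes listed below. The 9 of those that were matched summed to 2899 to 10130 CPM in control ilea and 2224 to 5887 in PFA ilea. FABP2 stood at 2632 to 4072 and 1897 to 3906 CPM in the same order.

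**Figure D5:**
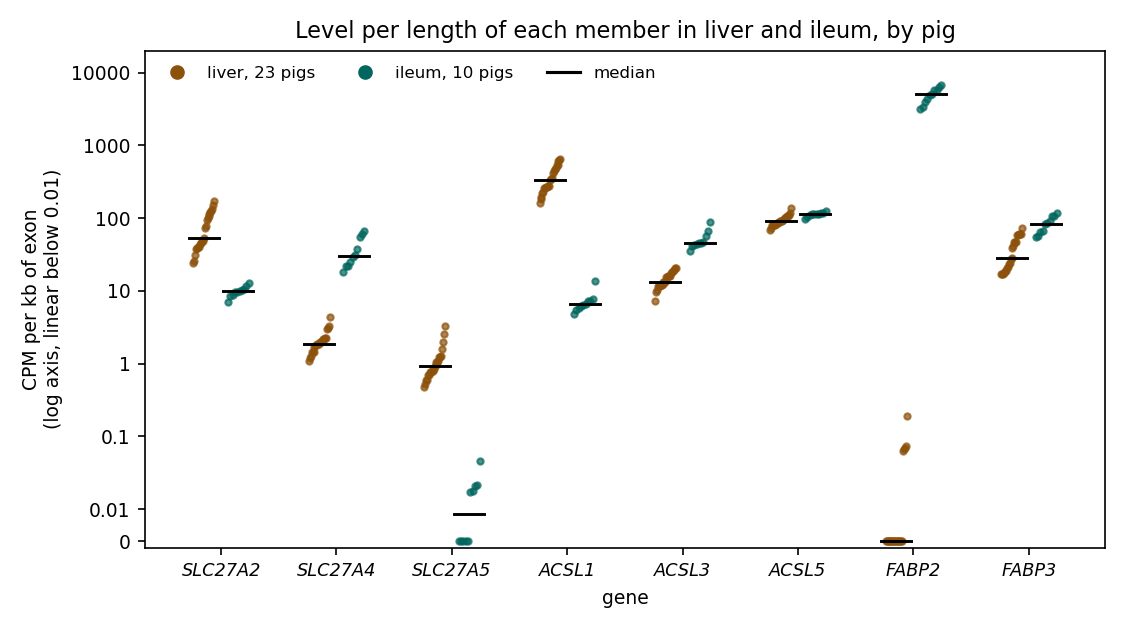
Level of each gene per kb of exon in 23 livers and 10 ilea, on a log axis that is linear below 0.01; each point is a pig and black bars are medians, with each tissue scaled on its own. ACSL1 has a median of 338 in liver and 6.56 in ileum, SLC27A4 1.86 and 30.2, and FABP2 0 and 5028.

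Other genes of the same steps were described from 4 lists of genes known for them. In OO against control, 1 of 8 tested genes for uptake was called by edgeR, MFSD2A, beside 2.71% of all genes. Of the other lists, 0 of 7 genes for binding, 0 of 9 for activation and 0 of 6 acyl-CoA thioesterases were called. At an unadjusted p under 0.05 by edgeR there were 4, 3, 3 and 0 in the same order, beside 2956 of all 13831 genes. In the pooled comparison 2 of the 8 uptake genes were called higher, 1 of the 7 binding genes was called higher, 1 of the 9 activating genes was called higher and 1 lower, and 1 of the 6 thioesterases was called higher. With 11.8% of all genes called in that comparison, counts of 1 or 2 in lists of this size are near the share over all genes. The median log2 differences of the 4 lists were 0.15, 0.10, -0.01 and 0.20 pooled, beside 0.01 over all genes.

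MFSD2A, which carries lysophosphatidylcholine with its fatty acid across membranes, had the largest difference among them. It ran from 2.19 to 3.18 CPM in control livers, 0.375 to 1.87 with PFA, 3.89 to 22.4 with OO and 1.77 to 32.8 with OO + PFA. Its log2 differences were 2.38 in OO against control (adjusted p = 0.0152 by edgeR) and 3.93 in OO + PFA against PFA (adjusted p = 4.99e-04). GPIHBP1, which anchors lipoprotein lipase to the capillary wall, had a pooled log2 difference of 1.104 (standard error 0.32, adjusted p = 0.0297 by edgeR) at no more than 5.15 CPM in any liver tested. FABP4, the binding protein of fat cells and macrophages, had 1.27 (standard error 0.29, adjusted p = 0.00979), at 0.366 to 5.87 CPM, and is also among the adipocyte markers.

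Among the activating genes ACSL4 and ACSF3 moved in opposite directions. ACSL4, an enzyme that prefers arachidonic acid, ran from 99.9 to 461 CPM in control livers, 131 to 249 with PFA, 57.8 to 186 with OO and 35.1 to 160.0 with OO + PFA. Its pooled log2 difference was -1.28 (standard error 0.27, adjusted p = 0.00491 by edgeR), against 0.99 for ACSL1. ACSF3, a malonyl-CoA synthetase of mitochondria, had a pooled difference of 1.17 (standard error 0.26, adjusted p = 0.00831). ACOT8, the peroxisomal thioesterase that splits acyl-CoA again, had 0.44 (standard error 0.14, adjusted p = 0.0439 by edgeR). Values after the correction for G and C content are not given for the genes of these lists.

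The genes whose log2 CPM followed SLC27A2 most closely over the 23 livers were RETSAT, the enzyme retinol saturase, with a Pearson r of 0.951, ACSL1 with 0.945, and ABCD3, a peroxisomal transporter of acyl-CoA, with 0.942. For ACSL1 they were SLC27A2 with 0.945, RETSAT with 0.928 and SLC25A20, the carnitine-acylcarnitine carrier of mitochondria, with 0.918. For FABP3 they were ANO10 with 0.873, ACSL1 with 0.814 and MRPL15, a mitochondrial ribosomal protein, with 0.781. All 23 points share the difference between the diets. After the mean of each diet was taken away, r was 0.708 between SLC27A2 and ACSL1, 0.519 between ACSL1 and FABP3 and 0.327 between SLC27A2 and FABP3. For the other genes it fell to 0.595 for RETSAT and 0.672 for ABCD3 with SLC27A2. With ACSL1 it was 0.617 for RETSAT and 0.602 for SLC25A20, and with FABP3 0.707 for ANO10 and 0.477 for MRPL15.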

How the data were processed

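RNA was sequenced from poly(A)-enriched, stranded libraries of 24 livers and 10 ilea. Per the labels, reads were aligned to Sscrofa11.1 with STAR 2.6.1d and counted with HTSeq; the release of the annotation and the strand option are not given in the sources used here. The deposited values are raw counts of read pairs per Ensembl gene, not normalized by the authors. Read pairs on no gene, 7.54 to 23.5 for every 100 on genes in liver and 22.8 to 27.9 in ileum, were left out of library sizes.

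Genes were matched to symbols through a gene name table, and 8 of the 10 named genes had an identifier. Positions, exon lengths and upstream sequences came from RefSeq on Sscrofa11.1. The genes and lists were chosen with earlier results of these data known. All named genes are given, from each list of other genes at most the 4 of smallest adjusted p among those called, and for the 3 genes of smallest p across the diets the 3 genes of highest correlation.

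Counts were tested with edgeR 4.0.16 (quasi-likelihood test, two-sided, TMM scaling, filterByExpr) in R 4.3.3, with 23 livers in one fit, 10 ilea in another and both libraries of the 10 pigs with both tissues in a further one. Alternatives were DESeq2 1.42.0, other scalings and filters, a correction for G and C content by lowess, a term for title form, all 24 livers, fits of the compared diets only, a block for the pig between the tissues, and fits without 1 pig at a time. Fits within each title form and on total counts were added after the data were seen. The correction for G and C content covered 79.8% of genes tested in liver, 79.4% in ileum and 78.4% in both. This is below the 80% set as needed, so it is void for counts over all genes, which are not given. All 8 genes described had a value, and their adjusted p after the correction was taken over the genes with a value only. Log2 CPM used a prior count of 2. Tables were made with Python 3.11.15, pandas 2.3.3 and numpy 2.4.6, figures with matplotlib 3.10.9. The tests were checked on simulated counts.

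Ileum and liver libraries of one number come from the same pig. Deviations from the group means correlated by -0.18 to 0.46 between the tissues of a pig, and in 8 of the 10 pigs by more than 0.1. Replicates are separate pigs. With 3 counts as the floor, a gene under it in every library of a group is given as a bound.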

Additional observations from a re-analysis of the deposited data

Results flagged for a closer look

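Among 42 groups of pigs examined, each 1 gene in 1 diet and tissue, 3 held a pig far from the others of its group by Dixon's test at 95%, where chance gives about 1 in 20. All 3 are in the ileum. P-134, with the highest slope on G and C content among the ilea (0.373), stood at 386 CPM in SLC27A4. The other 4 PFA pigs ran from 125 to 169. ACSL1 stood at 67.3 CPM in P-95, and the other 4 ran from 23.9 to 36.3. ACSL3 stood at 367 CPM in C-100, and the other 4 controls ran from 229 to 251.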

How the results depend on the processing

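The number of the 7 liver genes called was 3 across the 4 diets, 3 in OO against control, 2 in OO + PFA against PFA and 3 pooled. Within the PL libraries alone it was 0 in OO against control, with fewer samples in that fit. The pooled number within PL is not given, since OO + PFA held only 1 library there. Within the PigLiv libraries alone it was 2 in OO against control and 3 pooled. Without 1 pig at a time it ran from 3 to 3 across the diets, 2 to 3 in OO against control, 1 to 3 in OO + PFA against PFA and 3 to 3 pooled. In the other 6 comparisons no alternative moved the count of these genes by more than 1.5 times, and without 1 pig it stayed at 0 to 0 in 5 of them and at 8 to 8 between the tissues. Of 557 fold changes under the other alternatives 515 kept sign and side of the threshold, 26 without a call changed sign, 10 lost the call, 5 gained one and 1 called value reversed: ACSL5 between the tissues, 0.33 on total counts. With the pig as a replicate block all 8 genes were called between the tissues, as without it (SLC27A2 -3.06, ACSL1 -6.19), and the block changed no call.

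Counts over all genes varied more. Across the diets 506 genes were called, 1788 by DESeq2, 1113 with all 24 livers and 297 to 1450 without 1 pig. In OO against control 375 were called, 1087 by DESeq2, 224 with all 24 livers, 194 with the 2 diets alone, 114 within PigLiv, 8 within PL and 167 to 1325 without 1 pig. In OO + PFA against PFA 218 were called, 688 by DESeq2, 1225 with all 24 livers, 963 with the 2 diets alone, 30 within PigLiv and 103 to 411 without 1 pig. Pooled 1630 were called, and 837 to 2672 without 1 pig. Where edgeR called 0, DESeq2 called 31 in OO + PFA against OO, 37 in PFA against control, 161 for the interaction and 5 in the ileum. Other settings, the correction for G and C content aside, gave up to 1 in OO + PFA against OO and up to 2 for the interaction. Fits without 1 pig gave 0 to 7 and 0 to 5. The causes were not tested. Depth limits FABP2 in liver and SLC27A5 in ileum, at 2 counts or fewer.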
